A study of Homo sapiens with 6 samples.

Results

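Interferon-stimulated antiviral genes and sensors, 46 genes chosen by name, were followed in BT474 cells that carried an empty vector or a variant of the long non-coding RNA NR2F1-AS1. A probe belonged to a member when its gene name in the array files was the member's symbol, which gave 63 probes, and 30 of the 46 members had 1 probe. The members are 46 of the 43317 gene names on the array, and all 46 had at least 1 probe. BT474 is a breast cancer cell line with estrogen receptor and amplified HER2. The study asked what a gain of NR2F1-AS1 does in ER-positive breast cancer cells, since it had linked this lncRNA to late recurrence.

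There were 3 groups of 2 arrays, A and B, and each group was a stably transfected population grown in RPMI-1640 with serum and with no other treatment. Control cells carried empty pcDNA3.1 (named MOCK by the submitters), BT474-Var1 cells carried pcDNA3.1-NR2F1-AS1 variant 1, the long form, and BT474-Var4 cells carried pcDNA3.1-NR2F1-AS1 variant 4, the short form. The vectors of the variants were not the same: the long form was in a plasmid with hygromycin resistance, and the short form in one that also encodes eGFP. The variant cells, like Control cells, went through antibiotic selection, and both variants were grown from surviving colonies. Which empty plasmid the Control cells on these arrays carried is not stated in the sources used here. The vector, the growth from surviving colonies and the variant can therefore not be told apart. Nothing in the labels says that the arrays of a group came from separate cultures, so p-values measure only the spread between these arrays, which may be technical.

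Interferons are secreted proteins that warn cells of infection. Sensors of foreign RNA or DNA in the cytosol start their production, the interferons bind receptors on the cell surface, and the kinases JAK1 and TYK2 then activate transcription factors such as STAT2, which joins IRF9 in a complex that binds the interferon-stimulated response element (ISRE) in promoters. The genes switched on in this way encode proteins that block viral entry, translation and replication, more sensors, more of the signaling proteins themselves, and chemokines that attract lymphocytes. Many tumor cell lines keep a part of this program active without infection.

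All 6 arrays lay on 1 slide. Between 47.6% and 57.5% of the probes on an array were well above background, no spot was saturated, and replicates correlated with r of 0.98 to 0.987. The 2 BT474-Var1 arrays carried slide row 2 and the other 4 arrays slide row 1, so slide row and BT474-Var1 cannot be told apart. All 10 of 10 luminal and HER2 markers were well above background on all 6 arrays. Of 12 leukocyte markers, 10 were on the array and 4 to 7 were well above background on an array, their summed linear level lay between 2.07 and 2.24 times the array's 75th percentile in all 3 groups. PTPRC, CD3D, CD14 and ITGAM were well above background on all 6 arrays and CD3E and NKG7 on 5 of 6, while MS4A1, FCGR3A and CLEC4C were on none. A gene counted when any of its probes did, and the probes of PTPRC disagreed. Its brightest probe was well above background on all 6 arrays, but A_33_P3364821 and A_23_P12392 were on none. Probes of NR2F1-AS1, the transfected gene, separated the groups. A first probe (A_22_P00006112) had a mean log2 level of -0.21 in BT474-Var1 cells against -3.96 in Control and -4.13 in BT474-Var4 cells. A second (A_24_P51080) had 1.58 in BT474-Var4 cells against -5.34 in Control and -6.20 in BT474-Var1 cells. The brightest probe (A_22_P00006111) was raised in both variants, but not equally. Its mean was 3.02 for BT474-Var4, -1.61 for BT474-Var1 and -4.96 for Control arrays. The remaining probe (A_19_P00320140) was bright only on BT474-Var1 arrays, with a mean of -0.47 there.

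Many members share a feature of their promoters. RefSeq promoters, 250 bases before to 50 bases after the start of the gene in GRCh38.p14, were matched for 37 of 46 members (DDX58 under its current symbol RIGI). The core of the ISRE was searched on both strands as GAAA, any 2 bases and GAAA, and it was found in 24 of the 37 promoters (64.9%), compared with 996 of all 27305 RefSeq promoters (3.65%). The same pair of GAAA with 1 base between them, searched after the sequences had been seen, was found in 13 of 37 (35.1%), compared with 3.22%. The pairs may overlap. The core of another element, the gamma-activated sequence, was searched as TTC, any 3 bases and GAA. It was found in 11 of 37 (29.7%), compared with 7.88%, and is not marked below. IRF9 and IRF1, which hold no GAAA pair of either spacing, each have 1. A match describes the letters only, and the symbols were picked as known interferon targets, so a high share is no finding about these cells.

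Shown are 150 bases that end just before the start of 6 genes: IFIT1, ISG15 and BST2, which were higher in both variants, OAS1, whose pair has the narrow spacing, IFITM3, which has pairs and changed little, and IRF9, which changed in BT474-Var4 cells and has none. Capitals mark GAAA pairs (TTTC on the other strand) with 1 or 2 bases between them.
IFIT1, chr10:89392473-89392622, plus strand: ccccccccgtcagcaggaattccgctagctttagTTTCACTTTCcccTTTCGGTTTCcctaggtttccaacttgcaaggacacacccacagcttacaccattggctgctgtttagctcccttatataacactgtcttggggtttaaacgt
ISG15, chr1:1013347-1013496, plus strand: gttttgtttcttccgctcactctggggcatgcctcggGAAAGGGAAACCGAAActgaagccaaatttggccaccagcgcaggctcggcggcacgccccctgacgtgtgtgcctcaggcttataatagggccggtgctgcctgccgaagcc
BST2, chr19:17405631-17405780, minus strand: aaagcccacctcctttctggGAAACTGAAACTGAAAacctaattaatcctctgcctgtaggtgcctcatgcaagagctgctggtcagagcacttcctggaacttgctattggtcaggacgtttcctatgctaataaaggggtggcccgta
OAS1, chr12:112906812-112906961, plus strand: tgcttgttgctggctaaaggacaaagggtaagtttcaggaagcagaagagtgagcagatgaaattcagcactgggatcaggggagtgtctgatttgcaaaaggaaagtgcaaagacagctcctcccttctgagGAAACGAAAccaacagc
IFITM3, chr11:320861-321010, minus strand: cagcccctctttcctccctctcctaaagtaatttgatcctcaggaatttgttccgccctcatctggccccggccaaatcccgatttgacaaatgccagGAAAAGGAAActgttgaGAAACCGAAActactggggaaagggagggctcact
IRF9, chr14:24161115-24161264, plus strand: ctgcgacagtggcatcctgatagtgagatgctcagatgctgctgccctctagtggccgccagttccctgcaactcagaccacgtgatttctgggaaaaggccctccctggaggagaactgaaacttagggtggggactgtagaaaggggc

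Each value below is the log2 intensity relative to the array's 75th percentile, so that 0 is the level of the array's 75th percentile and a difference of 1 is a 2-fold change. Levels of different probes are not comparable, so each gene was compared only with itself across arrays. A gene was tested when both arrays of 1 group or more had a probe well above background, and its brightest tested probe stood for it. It was called at an adjusted p under 0.05 in limma, with the adjustment over all 31855 tested probes, and errors are standard errors (SE) from 2 arrays a group. In bulk RNA, fewer cells with a transcript and less of it in each cell cannot be told apart.

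Of the 46 members, 37 were tested. Compared with Control, 18 of 37 were higher in BT474-Var1 cells (48.6%) and 0 were lower (2 were at an unadjusted p under 0.05, and 1 at the adjusted p by analysis of variance), while 14.2% of all 24616 tested genes were higher and 20.7% lower. In BT474-Var4 cells, 26 of 37 were higher (70.3%) and 1 was lower, against 10.2% higher and 14.6% lower among all tested genes. The 37 genes had a median change of 0.39 in BT474-Var1 cells, where the median of all tested genes was -0.05, and of 0.82 in BT474-Var4 cells, where that of all tested genes was -0.08. With normexp background correction in place of the processed intensity, the members' medians were 0.21 and 0.37. Higher by 2-fold or more were 10 of 37 in BT474-Var1 (2.86% of all tested genes) and 14 of 37 in BT474-Var4 cells (1.69%). Both comparisons use the same Control arrays. Called as higher in both were 16 members, only in BT474-Var1 cells were DDX58 and PARP14, and only in BT474-Var4 cells were 10. A call in 1 population alone does not show a difference between both, which was tested directly.

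Set against each other, 18 of 37 members were higher in BT474-Var4 compared with BT474-Var1 cells and 4 were lower, with 20.9% of all tested genes higher and 21% lower. The median difference was 0.37, compared with -0.03 for all tested genes, and 2 members, BST2 and RSAD2, differed by 2-fold or more on their brightest probes (2.33% of all tested genes). With each array taken on its own, the median of the members relative to the Control mean was 0.02 and -0.02 in Control, 0.37 and 0.38 in BT474-Var1, and 0.69 and 0.77 in BT474-Var4 cells. The arrays of a group lay close together, and the groups did not overlap.

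OAS1, IFIT3 and CXCL10 were tested only because variant arrays were bright. The filter favored a rise in them for that reason, though IFIT3 was not called. Of the other 34 members, 16 were higher in BT474-Var1 cells with a median of 0.33, and 24 were higher and 1 lower in BT474-Var4 cells with a median of 0.49. The count of calls in BT474-Var4 cells depended on single arrays. It was 14 without Control A, 15 without Control B, 14 without BT474-Var4 A and 12 without BT474-Var4 B. Without any 1 of the 6 arrays, 11 of the 18 calls in BT474-Var1 cells, 12 of the 27 calls in BT474-Var4 cells and 9 of the 22 calls between the variants remained.

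**Figure D1:**
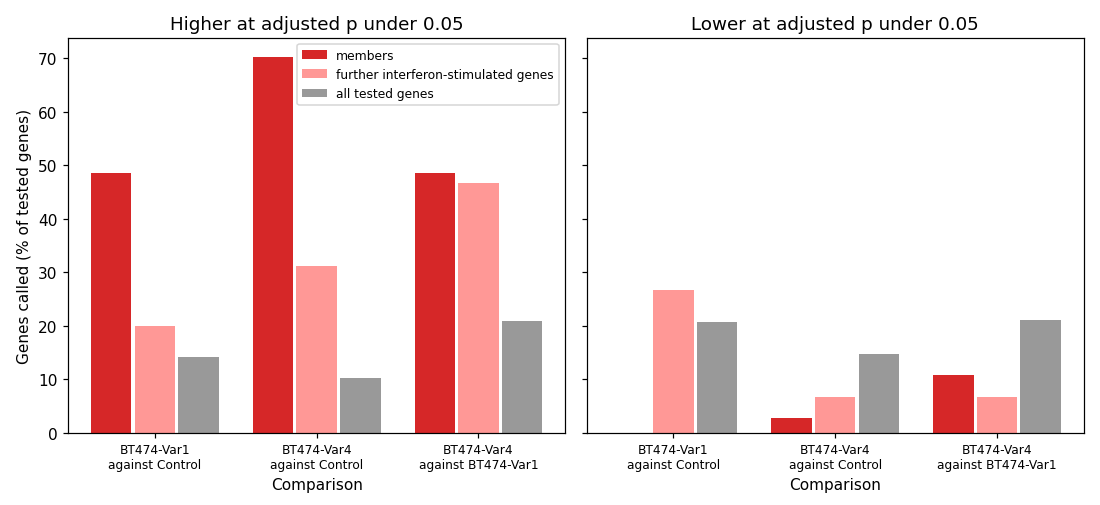
Percent of tested genes called higher (left) or lower (right) at an adjusted p under 0.05 in each comparison, for the members, for further interferon-stimulated genes and for all tested genes. The members reached 48.6% and 70.3% higher against Control, where all tested genes reached 14.2% and 10.2%.

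**Figure D2:**
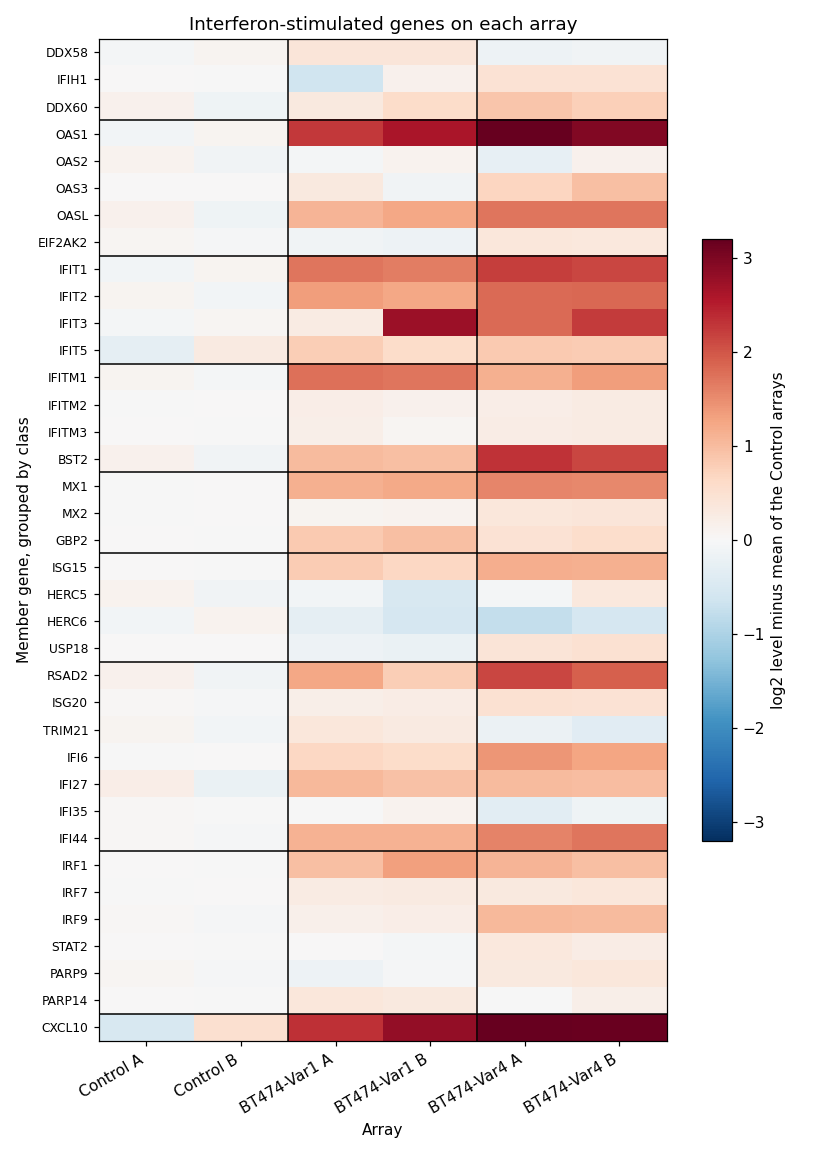
Log2 level of each tested member on each array minus the mean of the Control arrays, as colors from -3.2 (blue) to 3.2 (red), with members grouped by class between the horizontal lines. Most rows are red in both variants and darker on the BT474-Var4 arrays, while DDX58, GBP2, IFITM1 and TRIM21 are redder or less blue on the BT474-Var1 arrays.

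Among sensors of foreign nucleic acid, DDX58 was higher in BT474-Var1 and DDX60 in BT474-Var4 cells, and none reached 2-fold. DDX58 encodes RIG-I, which binds viral RNA with a free triphosphate end, and its levels were 0.86 and 1.01 in Control, 1.33 and 1.32 in BT474-Var1, and 0.78 and 0.83 in BT474-Var4 cells. The BT474-Var1 arrays lay above all others. DDX58 rose by 0.39 ± 0.07 in BT474-Var1 cells (adjusted p = 0.017), changed by -0.13 ± 0.07 in BT474-Var4 cells (adjusted p = 0.231), and the difference between the variants was -0.52 ± 0.07 (adjusted p = 0.0072). Its other tested probe gave 0.08 in BT474-Var1 cells and was not called (adjusted p = 0.512). IFIH1 encodes MDA5, which binds long double-stranded RNA, and it was at 2.63 and 2.59 in Control, 1.96 and 2.75 in BT474-Var1, and 3.06 and 3.06 in BT474-Var4 cells. The BT474-Var1 arrays were far apart and lay on either side of the Control arrays. No comparison of IFIH1 was called (adjusted p of 0.0984 to 0.508). DDX60, a helicase that supports RIG-I, rose by 0.82 ± 0.14 in BT474-Var4 cells (adjusted p = 0.0215) and had 0.45 ± 0.14 in BT474-Var1 cells (adjusted p = 0.0674). IFI16, a DNA sensor, was not well above background on any array.

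The enzymes that double-stranded RNA activates were higher mostly in BT474-Var4 cells, with 4 of 5 called there and 2 of 5 in BT474-Var1 cells. OAS1 makes the short oligoadenylates that switch on RNase L. Its probe (hg19 chr12:113354461-113354520) was at -6.18 and -6.02 in Control, -3.84 and -3.49 in BT474-Var1, and -2.90 and -3.15 in BT474-Var4 cells. It was well above background on neither Control array and on 1 of the 2 BT474-Var1 arrays, so that the rise was 1.64-fold or more in BT474-Var1 cells (adjusted p = 0.00346) and 2.56-fold or more in BT474-Var4 cells (adjusted p = 0.00311). These bounds set the mean of the variant arrays against the dimmest probes measured on the Control arrays. OASL, a relative of OAS1 without its enzyme activity, was at -1.91 and -2.19 in Control, -0.95 and -0.81 in BT474-Var1, and -0.35 and -0.34 in BT474-Var4 cells. It rose by 1.18 ± 0.11 in BT474-Var1 cells (2.26-fold, adjusted p = 0.00528), with a rise of 1.71 ± 0.11 in BT474-Var4 cells (3.26-fold, adjusted p = 0.0041).

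OAS3 and EIF2AK2 were called in BT474-Var4 cells alone, and both were also higher in BT474-Var4 compared with BT474-Var1 cells. OAS3, the largest of the oligoadenylate synthetases, rose by 0.82 ± 0.18 in BT474-Var4 cells (adjusted p = 0.037) and was 0.72 ± 0.18 higher than in BT474-Var1 cells (adjusted p = 0.034). EIF2AK2 encodes PKR, the kinase that stops translation when it binds double-stranded RNA. It rose by 0.35 ± 0.06 in BT474-Var4 cells (adjusted p = 0.0215), and had -0.15 ± 0.06 in BT474-Var1 cells (adjusted p = 0.127). Its second probe had 0.25 in BT474-Var4 cells and was not called there (adjusted p = 0.0699). OAS2 gave different values on its probes. The brightest (A_33_P3225512) had 0.04 and -0.06 in the variants, whereas a probe for another transcript (A_33_P3225522) was not well above background in Control cells and was higher on all 4 variant arrays, with fitted changes of 2.36-fold for BT474-Var1 (adjusted p = 0.0174) and 2.63-fold for BT474-Var4 cells (adjusted p = 0.0187). That probe was tested only because the variant arrays were bright, which favors a rise. The third tested OAS2 probe was not called.

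IFIT proteins bind viral RNA that lacks the cap of the host and block its translation. IFIT1 (probe at hg19 chr10:91163438-91163497) was at -1.56 and -1.36 in Control, 0.25 and 0.18 in BT474-Var1, and 0.75 and 0.69 in BT474-Var4 cells. All 3 groups were apart. IFIT1 rose by 1.68 ± 0.09 in BT474-Var1 cells (3.2-fold, adjusted p = 0.00293), by 2.18 ± 0.09 in BT474-Var4 cells (4.54-fold, adjusted p = 0.00242), and differed by 0.51 ± 0.09 between them (adjusted p = 0.0135). IFIT2 was at -1.91 and -2.11 in Control, -0.66 and -0.77 in BT474-Var1, and -0.20 and -0.16 in BT474-Var4 cells. It showed the same order, with rises of 1.29 ± 0.09 (adjusted p = 0.00365) and 1.83 ± 0.09 (adjusted p = 0.00293). The second IFIT2 probe was not higher in BT474-Var4 compared with BT474-Var1 cells (-0.34, adjusted p = 0.348). IFIT3, which stabilizes IFIT1 on RNA, was at -4.66 and -4.56 in Control, -4.34 and -1.87 in BT474-Var1, and -2.80 and -2.36 in BT474-Var4 cells. The BT474-Var1 arrays disagreed by more than the difference between groups, and IFIT3 was not called (adjusted p of 0.148 to 0.643). IFIT5 lay at 0.69 ± 0.21 and 0.82 ± 0.21 relative to Control and was not called either (adjusted p = 0.0669 and 0.0544).

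Among the membrane proteins, BST2 and IFITM1 were higher in both variants on their brightest probes. BST2, known as tetherin, holds budding virus at the cell surface. It (probe at hg19 chr19:17513748-17513807) was at -3.51 and -3.76 in Control, -2.63 and -2.67 in BT474-Var1, and -1.33 and -1.51 in BT474-Var4 cells. BST2 rose by 0.99 ± 0.11 in BT474-Var1 (1.98-fold, adjusted p = 0.00695), with a rise of 2.21 ± 0.11 in BT474-Var4 cells (4.63-fold, adjusted p = 0.00311), and the difference between the variants was 1.23 ± 0.11 (adjusted p = 0.00336). A second BST2 probe (A_23_P39465), well above background on all 6 arrays, gave smaller values. It had 0.55 in BT474-Var1 (1.47-fold, adjusted p = 0.0108), compared with 0.85 in BT474-Var4 cells (1.8-fold, adjusted p = 0.00687), and 0.29 between the variants (adjusted p = 0.0433). IFITM1, which blocks viral fusion at the plasma membrane, was at -2.76 and -2.91 in Control, -1.08 and -1.11 in BT474-Var1, and -1.70 and -1.49 in BT474-Var4 cells. It rose by 1.74 ± 0.10 in BT474-Var1 (3.34-fold, adjusted p = 0.00305), compared with 1.24 ± 0.10 in BT474-Var4 cells (2.36-fold, adjusted p = 0.00522), with a difference of -0.50 ± 0.10 (adjusted p = 0.0185). A dimmer second probe had 1.53 and 1.45 relative to Control and was not called (adjusted p = 0.0562 and 0.0769), nor was its difference of -0.07 between the variants (adjusted p = 0.903). The neighbors IFITM2 and IFITM3, which act in endosomes, stayed within 0.26 of Control. Of these, IFITM3 in BT474-Var4 cells was called (0.26 ± 0.06, adjusted p = 0.0426), with a promoter that holds 2 ISRE cores like that of IFITM1.

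Interferon-induced GTPases were higher in both variants, with 2 of 3 tested called in BT474-Var1 cells and all 3 of 3 in BT474-Var4 cells. MX1, which traps the nucleocapsids of RNA viruses, had the smallest SE of the 14 members called at 2-fold or more. Its levels were -0.99 and -0.95 in Control, 0.18 and 0.24 in BT474-Var1, and 0.59 and 0.56 in BT474-Var4 cells. MX1 rose by 1.18 ± 0.05 (2.26-fold, adjusted p = 0.00269) and by 1.55 ± 0.05 (2.92-fold, adjusted p = 0.00208), and differed by 0.37 ± 0.05 between the variants (adjusted p = 0.00922). Its relative MX2, at 2.29 to 2.30 in Control cells, rose by 0.37 ± 0.05 in BT474-Var4 cells (adjusted p = 0.013), but a second probe had -0.09 (adjusted p = 0.647). GBP2, which attacks vacuoles of intracellular microbes and responds strongly to interferon gamma, rose by 0.90 ± 0.07 in BT474-Var1 (adjusted p = 0.00411), compared with 0.50 ± 0.07 in BT474-Var4 cells (adjusted p = 0.0142), and was lower in BT474-Var4 compared with BT474-Var1 cells by -0.39 ± 0.07 (adjusted p = 0.0142). GBP1 was not well above background on any array.

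The genes of the ISG15 system did not change alike. ISG15, a ubiquitin-like protein that is attached to other proteins, was at 1.04 and 1.00 in Control, 1.82 and 1.68 in BT474-Var1, and 2.18 and 2.17 in BT474-Var4 cells. It rose by 0.73 ± 0.07 (1.66-fold, adjusted p = 0.00494) and 1.16 ± 0.07 (2.23-fold, adjusted p = 0.00332), with 0.42 ± 0.07 between the variants (adjusted p = 0.0108). USP18, which removes ISG15 and dampens receptor signaling, was at 1.94 and 1.94 in Control, 1.78 and 1.73 in BT474-Var1, and 2.36 and 2.42 in BT474-Var4 cells. USP18 rose by 0.45 ± 0.05 in BT474-Var4 cells (adjusted p = 0.0103), and the difference between the variants was 0.64 ± 0.05 (adjusted p = 0.0027). Its value in BT474-Var1 cells was -0.19 ± 0.05 (adjusted p = 0.052). The ligase HERC5 was not called in any comparison. Its relative HERC6 fell by 0.65 on the log2 scale in BT474-Var4 cells (SE 0.14, adjusted p = 0.0355), the sole called fall from Control among the 37 members. Its second probe had 0.08 (adjusted p = 0.642). The fall of HERC6 was not called by analysis of variance or with the mean of its probes.

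Of the other effectors, 7 of 12 could be tested, and 4 were called as higher in BT474-Var1 cells and 5 were in BT474-Var4 cells. RSAD2 encodes viperin, which makes a chain-terminating nucleotide. It (probe at hg19 chr2:7037200-7037259) was at -3.24 and -3.49 in Control, -2.14 and -2.57 in BT474-Var1, and -1.23 and -1.46 in BT474-Var4 cells. RSAD2 rose by 1.00 ± 0.19 in BT474-Var1 (adjusted p = 0.0196), with a rise of 2.02 ± 0.19 in BT474-Var4 cells (4.04-fold, adjusted p = 0.00672), and the difference between the variants was 1.01 ± 0.19 (2.02-fold, adjusted p = 0.0162). IFI6, a small protein of mitochondria and the endoplasmic reticulum, was at -0.12 and -0.11 in Control, 0.55 and 0.46 in BT474-Var1, and 1.30 and 1.15 in BT474-Var4 cells. It rose by 0.62 ± 0.08 (adjusted p = 0.00772) and by 1.34 ± 0.08 (2.53-fold, adjusted p = 0.00332), a difference of 0.72 ± 0.08 (adjusted p = 0.00427). IFI44 was at -3.72 and -3.80 in Control, -2.65 on both BT474-Var1 arrays, and -2.16 and -2.06 in BT474-Var4 cells. It rose by 1.11 ± 0.06 (2.16-fold, adjusted p = 0.00305) and by 1.65 ± 0.06 (3.15-fold, adjusted p = 0.00223). For RSAD2, IFI6 and IFI44, all 3 groups were apart.

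IFI27 differed from these, since it rose by 0.99 ± 0.15 in both variants (adjusted p = 0.0112 and 0.016) and the difference between them was 0.00 ± 0.15. ISG20, an RNA exonuclease, rose by 0.48 ± 0.06 in BT474-Var4 cells (adjusted p = 0.0108). TRIM21, an antibody receptor of the cytosol, was not called against Control but was lower in BT474-Var4 compared with BT474-Var1 cells by -0.61 ± 0.10 (adjusted p = 0.012). IFI35 was not called in any comparison. TRIM22, SAMD9, SAMD9L, XAF1 and IFI44L were not well above background on any array. IFI44L is a neighbor of IFI44, and its values of -5.34 and -5.48 in Control, -3.84 and -4.23 in BT474-Var1, and -4.26 and -4.24 in BT474-Var4 cells lay at or near the dimmest levels that could be measured.

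**Figure D3:**
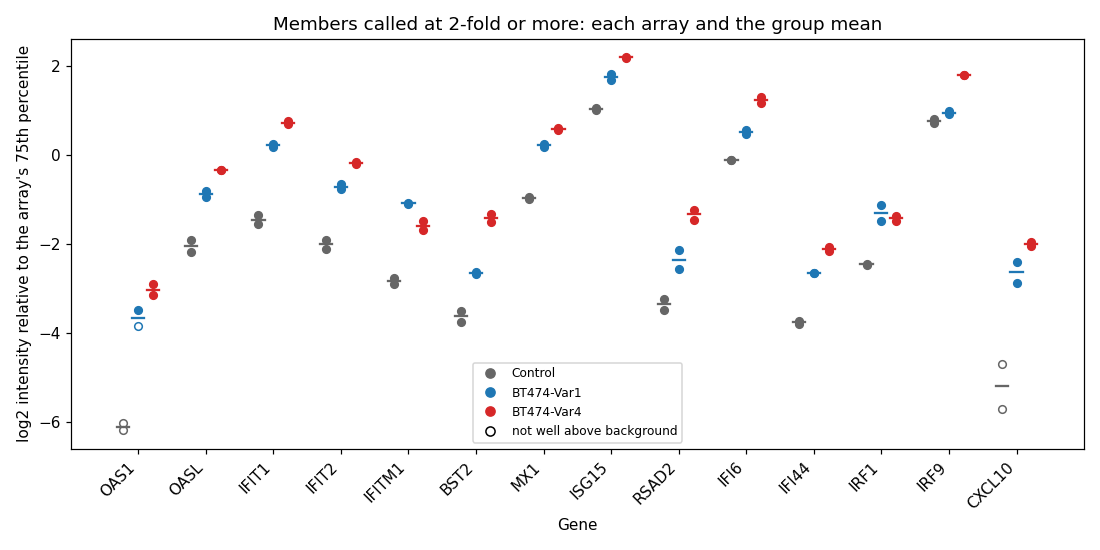
Log2 level on each array (points) and the group mean (bars) of the 14 members called at 2-fold or more in at least 1 comparison, relative to the array's 75th percentile; open points were not well above background. BT474-Var4 arrays lie highest for 12 of the genes, and BT474-Var1 arrays overlap or exceed them for IRF1 and IFITM1.

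Among the regulators of transcription, IRF1 rose in both variants and IRF9 in BT474-Var4 cells. IRF1, a factor that itself binds interferon response elements, was at -2.45 and -2.47 in Control, -1.49 and -1.14 in BT474-Var1, and -1.37 and -1.49 in BT474-Var4 cells. The variants overlapped and both lay above Control, with rises of 1.14 ± 0.13 (2.21-fold, adjusted p = 0.0069) and 1.03 ± 0.13 (2.04-fold, adjusted p = 0.0125). The call in BT474-Var4 cells was lost when either array of Control or of BT474-Var4 cells was left out (adjusted p up to 0.0729). IRF9, the DNA-binding part of the complex with STAT2, was at 0.80 and 0.72 in Control, 0.91 and 0.97 in BT474-Var1, and 1.79 and 1.78 in BT474-Var4 cells. The BT474-Var4 arrays stood apart. IRF9 (probe at hg19 chr14:24635500-24635559) rose by 1.03 ± 0.06 in BT474-Var4 cells (2.04-fold, adjusted p = 0.00332), had 0.18 ± 0.06 in BT474-Var1 cells (adjusted p = 0.0709), and differed by 0.84 ± 0.06 between them (1.8-fold, adjusted p = 0.00196). A dimmer probe for another IRF9 transcript had 0.42 in BT474-Var4 cells (adjusted p = 0.334) and -0.37 between the variants (adjusted p = 0.341).

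STAT2, the partner of IRF9, moved less. Its levels were 3.67 and 3.66 in Control, 3.67 and 3.61 in BT474-Var1, and 4.00 and 3.89 in BT474-Var4 cells. It rose by 0.28 ± 0.06 in BT474-Var4 cells (adjusted p = 0.0382), a call lost when any 1 of the 6 arrays was left out (adjusted p up to 0.184), and it was 0.31 ± 0.06 higher than in BT474-Var1 cells (adjusted p = 0.0197). IRF7, which amplifies interferon production, rose by 0.27 ± 0.05 in BT474-Var1 (adjusted p = 0.0188), compared with 0.35 ± 0.05 in BT474-Var4 cells (adjusted p = 0.0154). PARP9 rose by 0.34 ± 0.07 in BT474-Var4 (adjusted p = 0.037) and PARP14 by 0.33 ± 0.08 in BT474-Var1 cells (adjusted p = 0.0345). A second PARP9 probe was lower in BT474-Var1 cells (-0.54, adjusted p = 0.0339), where the first had -0.11 (adjusted p = 0.318), and had 0.19 in BT474-Var4 cells (adjusted p = 0.319).

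CXCL10, a chemokine that attracts T cells through CXCR3, was higher in both variants. Its brightest probe was at -5.71 and -4.70 in Control, -2.87 and -2.40 in BT474-Var1, and -1.95 and -2.05 in BT474-Var4 cells, and neither Control array was well above background. The rise of CXCL10 was at least 3.35-fold in BT474-Var1 (adjusted p = 0.0111) and no less than 5.21-fold in BT474-Var4 cells (adjusted p = 0.0103). The call was lost without BT474-Var1 B in the first comparison (adjusted p = 0.0532) and, in the second, when either array of BT474-Var4 cells was left out (adjusted p up to 0.0562). Its second probe, also not well above background in Control cells, had a fitted change of 2.03 in BT474-Var1 cells that was not called (adjusted p = 0.0729), and one of 2.91 in BT474-Var4 cells that was (adjusted p = 0.0395). CXCL11, a second ligand of CXCR3, was not well above background on any array. CD274, the checkpoint ligand PD-L1, was well above background on 1 of 6 arrays and was not tested.

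**Figure D4:**
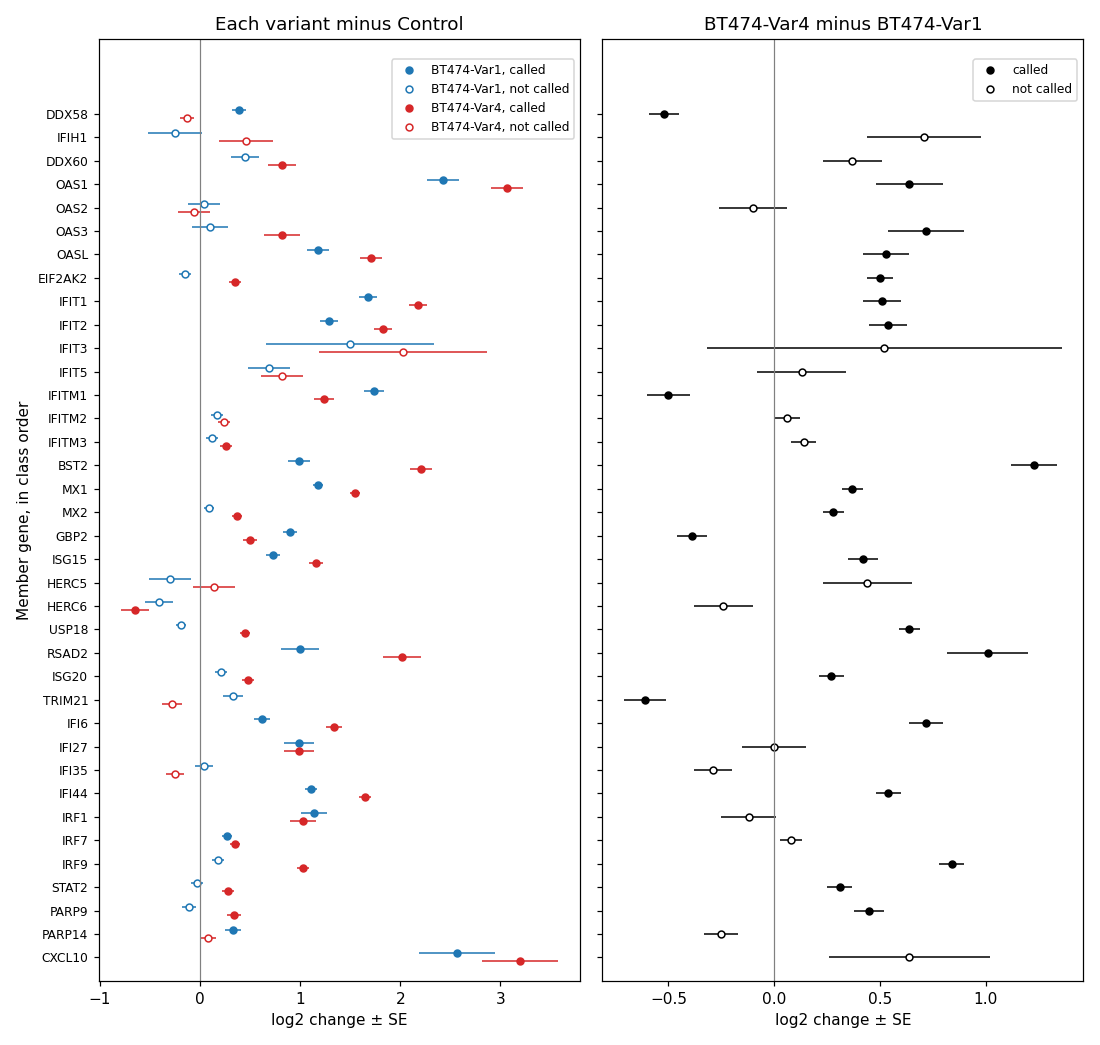
Log2 change ± SE of each tested member relative to Control (left: blue, BT474-Var1; red, BT474-Var4) and of BT474-Var4 relative to BT474-Var1 cells (right); filled points were called at an adjusted p under 0.05. Each member is shown by its brightest probe. BST2 and RSAD2 lie farthest to the right in the direct comparison, at 1.23 and 1.01 (the second BST2 probe had 0.29), and TRIM21 and DDX58 farthest to the left, at -0.61 and -0.52.

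By promoter, 20 tested members had an ISRE core and 9 had none. With the core, 10 of 20 were higher in BT474-Var1 cells (median 0.66) and 14 of 20 in BT474-Var4 cells (median 0.91). Without it, 4 of 9 (median 0.18) and 6 of 9 (median 0.34) were higher. OAS1, RSAD2, IFI35 and DDX58 belonged to the second group by this spacing, and all held GAAA pairs with 1 base between them. Of these, OAS1 and RSAD2 were higher in both variants, DDX58 was higher in BT474-Var1 cells only, and IFI35 was not called in any comparison. No test was made of the split by ISRE core.

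Other genes of the pathway were taken as lists. The list of interferons held 24 names, some of them older names of a listed gene, and 17 were on the array. Tested were 3, the type I interferon IFNA4 and the type III interferons IFNL1 and IFNL2. IFNA4 was 0.37 above Control in BT474-Var1 cells (adjusted p = 0.0272), a call kept in 9 of 16 alternatives. It was lost, among others, without the filter on dim probes, with the replicate block and by analysis of variance. IFNA4 had -0.28 in BT474-Var4 cells, which was not called. Unlike IFNL1 and IFNL2, it was lower in BT474-Var4 compared with BT474-Var1 cells (-0.64). IFNL1 was at -4.44 and -5.10 in Control, -3.89 and -3.94 in BT474-Var1, and -2.82 and -2.64 in BT474-Var4 cells, and was not well above background on the Control arrays or on 1 BT474-Var1 array. IFNL1 was tested only because the BT474-Var4 arrays were bright, which favors a rise there. Its rise in BT474-Var4 cells was at least 3.13-fold (adjusted p = 0.00992), and the difference between the variants was 1.18 ± 0.23 (adjusted p = 0.0191). Its bound for BT474-Var1 cells was 1.38-fold higher (adjusted p = 0.0497), a call kept in 1 of 15 alternatives (adjusted p up to 0.169). IFNL2 was at -1.59 and -1.61 in Control, -1.21 and -0.82 in BT474-Var1, and -0.14 and -0.25 in BT474-Var4 cells. It rose by 1.41 ± 0.14 in BT474-Var4 cells (2.65-fold, adjusted p = 0.00802) and by 0.58 ± 0.14 in BT474-Var1 cells (adjusted p = 0.0393), where the call was kept in 6 of 16 alternatives. IFNL genes are close copies of each other, and a probe may read more than 1 of them.

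The names that follow for lists of the pathway include genes under 2-fold, which were chosen after their values were seen. Of the receptors and kinases, 1 of 9 (TYK2) was higher and 1 (IFNGR2, -0.92) lower in BT474-Var1 cells, and 2 of 9 (JAK1 and IFNGR1) were higher in BT474-Var4 cells. Of all tested genes, 14.2% were higher and 20.7% lower in the first comparison, and 10.2% and 14.6% in the second. IFNAR1 and IFNAR2, the receptor chains for type I interferon, were not called on their brightest probes. Both other IFNAR2 probes were lower in BT474-Var1 cells (adjusted p = 0.00747 and 0.00651). In BT474-Var4 cells the first of them was not called (adjusted p = 0.0631). The last (A_23_P211080) was lower there too, by 1.39-fold or more (adjusted p = 0.00939). That probe was tested only because the Control arrays were bright, which favors a fall. JAK1 had 0.28 ± 0.06 in BT474-Var4 cells (adjusted p = 0.0365), a call lost without any 1 of the 6 arrays (adjusted p up to 0.152). TYK2 rose by 0.67 ± 0.11 in BT474-Var1 cells (adjusted p = 0.0149). JAK2 was lower in BT474-Var4 compared with BT474-Var1 cells by -1.03 ± 0.21 (adjusted p = 0.022).

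Of the adaptors and kinases upstream of interferon, 5 of 12 were higher (TLR3, ZBP1, DHX58, IRF3 and TICAM1) and 1 lower (MAVS) in BT474-Var1 cells, beside 14.2% and 20.7% of all tested genes. In limma, 0 of 12 were called in BT474-Var4 cells, where 1 had an unadjusted p under 0.05 and 10.2% of all tested genes were higher and 14.6% lower. TLR3, a sensor of double-stranded RNA in endosomes, was at -3.04 and -2.51 in Control, -1.29 and -1.21 in BT474-Var1, and -2.56 and -2.88 in BT474-Var4 cells. It rose by 1.52 ± 0.21 in BT474-Var1 cells (2.88-fold, adjusted p = 0.00965) and was lower in BT474-Var4 compared with BT474-Var1 cells by -1.47 ± 0.21 (adjusted p = 0.00854). ZBP1, a sensor of Z-form nucleic acid, rose at least 1.63-fold in BT474-Var1 (adjusted p = 0.0239). It was tested only because the BT474-Var1 arrays were bright, which favors a rise there. Of the negative regulators of interferon signaling, 1 of 9 was higher (TRIM29) and 3 were lower (SOCS1, PTPN1 and PTPN2) in BT474-Var1 cells, and TRIM29 was higher in BT474-Var4 cells, with the same shares of all tested genes beside them. SOCS3, which inhibits JAK kinases, was 1.37 ± 0.35 higher in BT474-Var4 compared with BT474-Var1 cells (adjusted p = 0.036).

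Of 52 further interferon-stimulated genes, 45 were tested. In BT474-Var1 cells, 9 of 45 were higher (20.0%) and 12 lower (26.7%), with a median of 0.01, beside 14.2% and 20.7% of all tested genes. In BT474-Var4 cells, 14 of 45 were higher (31.1%) and 3 lower (6.67%: SP100, PML and TRIM14), with a median of 0.13, beside 10.2% and 14.6% of all tested genes. In the direct comparison, 21 of 45 were higher in BT474-Var4 cells and 3 lower (PML, PARP10 and HELZ2), where 20.9% of all tested genes were higher and 21% lower. CCL5, a chemokine for T cells, was at -1.93 and -2.05 in Control, -1.40 and -1.51 in BT474-Var1, and 0.34 and 0.25 in BT474-Var4 cells. Its rise was 0.53 ± 0.08 in BT474-Var1 (adjusted p = 0.0107), compared with 2.28 ± 0.08 in BT474-Var4 cells (4.86-fold, adjusted p = 0.00203). CMPK2, the neighbor of RSAD2, and LAMP3 were higher in BT474-Var4 compared with BT474-Var1 cells by 1.00 ± 0.08 (adjusted p = 0.00268) and 1.28 ± 0.06 (adjusted p = 0.00127). LAMP3 fell by 0.69 in BT474-Var1 cells (adjusted p = 0.00492) and rose by 0.59 in BT474-Var4 cells (adjusted p = 0.00843).

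TRANK1, PARP10 and GBP3 were called at 2-fold or more in BT474-Var1 cells. TRANK1 was not well above background in Control cells and rose at least 4.27-fold in BT474-Var1 (adjusted p = 0.0181). It was tested only because the BT474-Var1 arrays were bright, which favors a rise there. PARP10 rose by 1.17 ± 0.16 (adjusted p = 0.00941) on its brightest probe and had -0.05 on the other (adjusted p = 0.637). GBP3, a relative of GBP2, rose by 1.06 ± 0.09 in BT474-Var1 (adjusted p = 0.00437), compared with 0.78 ± 0.09 in BT474-Var4 cells (adjusted p = 0.00923). Of 9 fibroblast and endothelial markers, 4 to 5 were well above background on each array, 2 of the 5 tested (DCN and COL1A1) were higher in BT474-Var4 cells, and the median change was -0.05. COL1A2, COL3A1 and LUM were not well above background on any array, while COL1A1, PDGFRB, VWF and CDH5 were on every array by their brightest probes. Another probe of PDGFRB (A_23_P421401) and another of VWF (A_33_P3307267) were not well above background on any array. The markers' summed linear level was 8.14 and 8.10 on the BT474-Var4 arrays, compared with 5.57 to 5.95 on the other arrays. DCN, at background in Control cells, was at least 7.11-fold higher there (adjusted p = 0.0125), and COL1A1 rose by 1.03 (adjusted p = 0.00293). DCN was tested only because the BT474-Var4 arrays were bright. PGR, the progesterone receptor among the luminal markers, fell by 1.22 on the log2 scale in BT474-Var4 cells (adjusted p = 0.00262). It was also lower in BT474-Var1 cells (-0.29, adjusted p = 0.0187). Of the 10 luminal and HER2 markers, 3 were higher and 4 lower in BT474-Var1 cells, beside 14.2% and 20.7% of all tested genes. In BT474-Var4 cells, 0 were higher and 3 lower, beside 10.2% and 14.6%. The part of these in the changes of the members was not tested.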

How the data were processed

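Total RNA of 6 BT474 samples was labeled with Cy3 and hybridized to single-color Agilent arrays. Per the file headers, the authors quantified spots with Feature Extraction 11.5.1.1 (background subtraction, spatial detrending, flags for dim, saturated and outlier spots), and the deposited spot intensity is linear and not normalized between arrays. The deposited table of log2 values, made by the authors with a shift to the 75th percentile, matched each array and served as an alternative.

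Here, log2 of the processed intensity minus the array's 75th percentile over 58201 non-control probes was used, without outlier spots. A probe was tested when both arrays of any group had it well above background (31855 probes, 24616 gene names). Group means were fitted to all 6 arrays with limma 3.58.1 (R 4.3.3, 3 residual and 1.53 prior degrees of freedom), with Benjamini-Hochberg adjustment over tested probes. The letters A and B did not pair samples. A fold against a group at background is a bound, with the dim group raised, on each array, to the lowest signal well above background.

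The members and lists were chosen with earlier results of these data known. Every member is accounted for; values per array are given for members called at 2-fold or more, for IRF9, STAT2, IRF1, DDX58, IFIH1, ISG15 and MX1, and for members whose probes or arrays disagreed or that were never above background and are singled out. Pathway genes named are JAK1, TYK2, IFNAR1, IFNAR2 and those called at 2-fold, and 1 gene of the naming rule is not reported here; the other pathway genes and the markers named were chosen after their values were seen. The procedure was tested on simulated data. 2 arrays a group limit the precision. Alternatives are given in the closing section. Gene models and promoters are from RefSeq (GRCh38.p14), and probe positions from the array files (hg19).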

Additional observations from a re-analysis of the deposited data

How the results depend on the processing

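The counts of higher members in BT474-Var1 cells, 18, in BT474-Var4 cells, 26, and between the variants, 18, changed with the setting. Without a filter on dim probes they were 12, 12 and 6, with 0 lower in BT474-Var4 cells and 1 lower between the variants. At 2-fold or more they were 10, 14 and 2, with 0 lower in each. Under normexp they were 23, 28 and 20, after quantile normalization 22, 27 and 16, by analysis of variance 16, 20 and 14, and with the replicate block 18, 21 and 16. The letters did not pair the arrays (A minus B correlated between groups by -0.02 to 0.05), and the block left 0 members lower in BT474-Var4 cells. For BT474-Var1 against Control, 0 lower became 2 under normexp, 1 after quantile normalization, 1 with the filter on all 6 arrays, 1 in the deposited table, 3 with trend and robust estimation, 1 by analysis of variance, and 2 with the mean of a gene's probes. For BT474-Var4 against Control, 1 lower became 2 under normexp and with trend and robust estimation, and 0 with only the compared groups, by analysis of variance or with the mean of probes. With each array left out in turn, the higher members were 13 to 18, 12 to 25 and 10 to 16, and the lower members 0 to 1, 0, and 2 to 5. The causes were not tested.

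The mean over all tested probes of a gene moved OAS2 in BT474-Var4 cells from below 0 to 0.38 (adjusted p = 0.0417) and PML there to 0.00, and turned the sign of SP100 to 0.29 in BT474-Var1 cells and to -0.31 between the variants. With normexp the medians of the members against Control were 0.21 and 0.37. Under quantile normalization the median over all tested probes moved by less than 0.1. Of the members' single values under an alternative, 1501 kept their side of the threshold, 70 gained and 195 lost the call. Besides these, 1, that of OAS2, changed sign with a call in either fit. Changes of sign between values that were not called were not counted.

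Signal over background limited the count of measured members: 9 members were not measurable and 3 had Control levels at background. Each group had 2 arrays on 1 slide, and the vectors differed with the variant.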
